A study of Mus musculus with 6 samples.

Results

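The genes described here are 10 feedback inhibitors of MAP kinase signalling, taken by symbol from the 32815 gene rows of an RNA-seq table of C2C12 cells, an immortalised mouse myoblast line. They are the dual-specificity phosphatases Dusp1, Dusp4, Dusp5, Dusp6 and Dusp10, the Sproutys Spry1, Spry2 and Spry4, and the Spreds Spred1 and Spred2. The 3 control libraries and the 3 libraries of cells under cyclic mechanical stretch (MS) came from wild-type cells and carry 1 batch label. For MS, a model of mechanical injury, a bending device loaded the culture plate at 1 Hz for 8 h (a time the study also names MS6) with a displacement of 4 mm, and the strain is given as 5333 μ, a unit that is not spelled out. The labels do not state whether replicate libraries stem from separate cultures, and the p-values accordingly describe library-to-library spread that may be technical.

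Growth factor receptors switch on RAS, which passes the signal through RAF and MEK to the MAP kinase ERK, while stress signals run through parallel cascades to the MAP kinases JNK and p38. DUSPs of this class remove both activating phosphates from a MAP kinase, Sproutys dampen the step between receptor and RAS or RAF, and Spreds bring the RAS inactivator neurofibromin to the membrane. Many of these genes are themselves induced by ERK, so that the cascade restrains itself, and their transcripts are often read as a record of its output. In muscle, Spry1 is known for the return of satellite cells, the muscle stem cells, to quiescence.

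The feedback genes moved in opposite directions, and Spry1, Dusp1 and Dusp4 had the largest fold changes of the 10. In MS cells Dusp1 fell from 80.6 ± 11.2 to 34.9 ± 5.03 FPKM (fragments per kilobase of transcript, scaled to the fragments of the library) and Spry1 from 16.1 ± 4.92 to 5.77 ± 0.430, while Dusp4 rose from 31.8 ± 3.07 to 59.8 ± 1.05 (SD, n = 3 each). All 10 genes reached a mean of 1 FPKM and were tested. At an adjusted p under 0.05 in a limma fit over all 12028 tested genes, 4 rose (Dusp4, Dusp5, Dusp10 and Spry4), 4 fell (Dusp1, Dusp6, Spry1 and Spred1), and Spry2 and Spred2 did not pass. Among all tested genes 30.6% were called higher and 23.2% lower, 53.8% in all, so that a call by itself is common in this table. Each MS library was above each control library for 4 of the 10, the genes that rose, against 35.9% of all tested genes. Every MS library was below for 4 of the 10, those that fell, against 26.8%. In all, 8 of 10 did not overlap against 62.7% of all. The median log2 fold change was -0.02 over the 10 genes and 0.05 over all tested genes. A fall of at least 2-fold was called for 2 of the 10, Dusp1 and Spry1, against 3.43% of all tested genes. These are bulk libraries, in which fewer cells with a transcript and less of it per cell cannot be told apart.

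**Figure D1:**
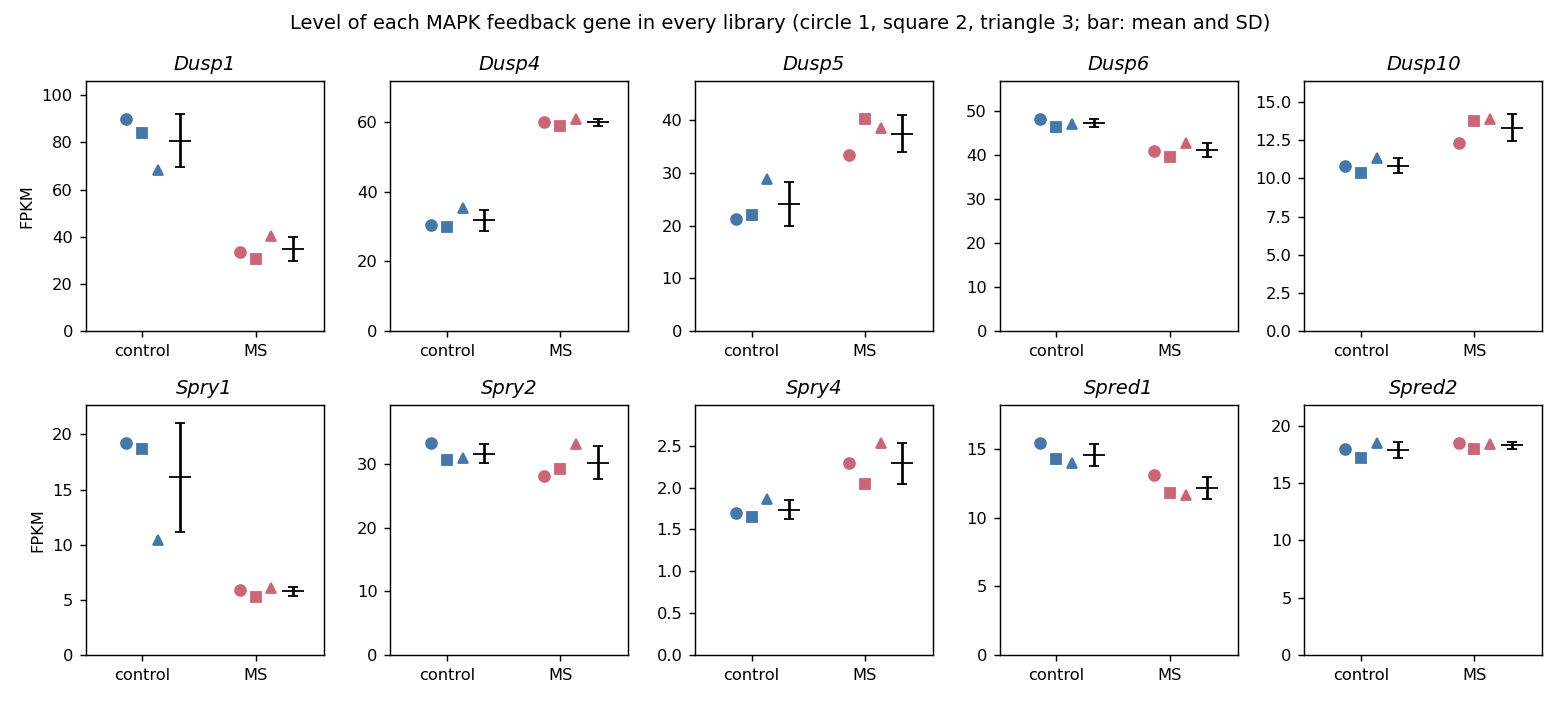
FPKM of each of the 10 feedback genes (y axis, from 0, with its own scale in each panel) in the control and MS libraries; symbols stand for libraries 1, 2 and 3, and the bar for the mean and SD. The groups do not overlap for 8 genes and overlap for Spry2 and Spred2. Of the controls, control 3 lies nearest to the MS libraries for Dusp1, Dusp4, Dusp5, Dusp10, Spry1, Spry4 and Spred1, and control 2 for Dusp6.

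The libraries also differed in transcripts outside the feedback genes. Mitochondrial mRNA took 12.4% to 13.4% of all FPKM among the controls but 1.64% to 2.82% under MS. Summed FPKM of 12 kidney markers was between 0.964 and 1.22 in control 1 and control 2. The sum was between 97.4 and 107 in control 3 and the MS libraries, with 11 of the 12 higher in each of these 4 than in both others. Most of that sum was Kap, at 86.9 to 96.0 FPKM in these 4 libraries, while every other kidney marker was at most 3.13. Of 13 tongue and salivary gland markers in the table, 9 were higher in control 3 and MS 1 than in the other 4 libraries, with sums of 138 and 184 FPKM against 13.9 to 42.3. Lens markers summed to 305 and 374 FPKM in control 3 and MS 1 and to between 1240 and 1636 elsewhere. In every library, controls included, that was above the sum of the 10 myoblast markers, which was 59.6 to 76.8 FPKM. The sum of 7 macrophage markers was 7.19 to 8.76 FPKM among the controls and 29.0 to 32.9 under MS, of which Cd68 made 24.8 to 29.7, while Adgre1 was at 0 in every library and Csf1r at most 0.19. All 6 epithelial markers were higher in MS than in control, with sums of 3.00 to 11.4 against 0.263 to 2.07 FPKM. Endothelial markers summed to 1.06 to 1.77 and adipocyte markers to 1.81 to 4.58 FPKM over the 6 libraries. The part of these transcripts in the results was not tested. Of 10 myoblast markers, 6 were below every control in each MS library and 1 was above. The 1 above was Chrna1, at 3.75 to 4.25 FPKM among the controls and 5.34 to 5.85 under MS. Of the 6 below, Msc and Myog were near the floor, at most 0.31 FPKM in any library. Myod1, a factor that sets muscle identity, was at 1.42 to 2.00 FPKM among the controls and at 0.82 to 1.20 under MS, and the adhesion molecule Ncam1 at 5.67 to 6.63 and 3.70 to 3.86. The most abundant of the list, desmin (Des), overlapped between the groups at 46.7 to 59.8 FPKM, and the satellite cell factor Pax7 was at 0 in 5 libraries and at 0.01 in MS 3. The part of the lower myoblast markers in the results was not tested.

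By these transcripts control 1 and 2, control 3 and MS 1, and MS 2 and 3 form 3 library sets, and only the middle one holds both groups. A fit with the 3 sets as a term, added after seeing the data, therefore rests on the difference between MS 1 and control 3 and takes its spread from the other 4 libraries. In it 26.3% of all tested genes were called (15.3% higher and 11.0% lower), against 3 of the 10 feedback genes. Dusp4 was called higher (log2 fold change 0.75, adjusted p = 0.00173), and Dusp1 (-0.99, adjusted p = 0.0129) and Spry1 (-0.72, adjusted p = 0.00806) lower. The calls of Dusp5, Dusp6, Dusp10, Spry4 and Spred1 were lost in that fit, with limma adjusted p between 0.0999 and 0.506.

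**Figure D2:**
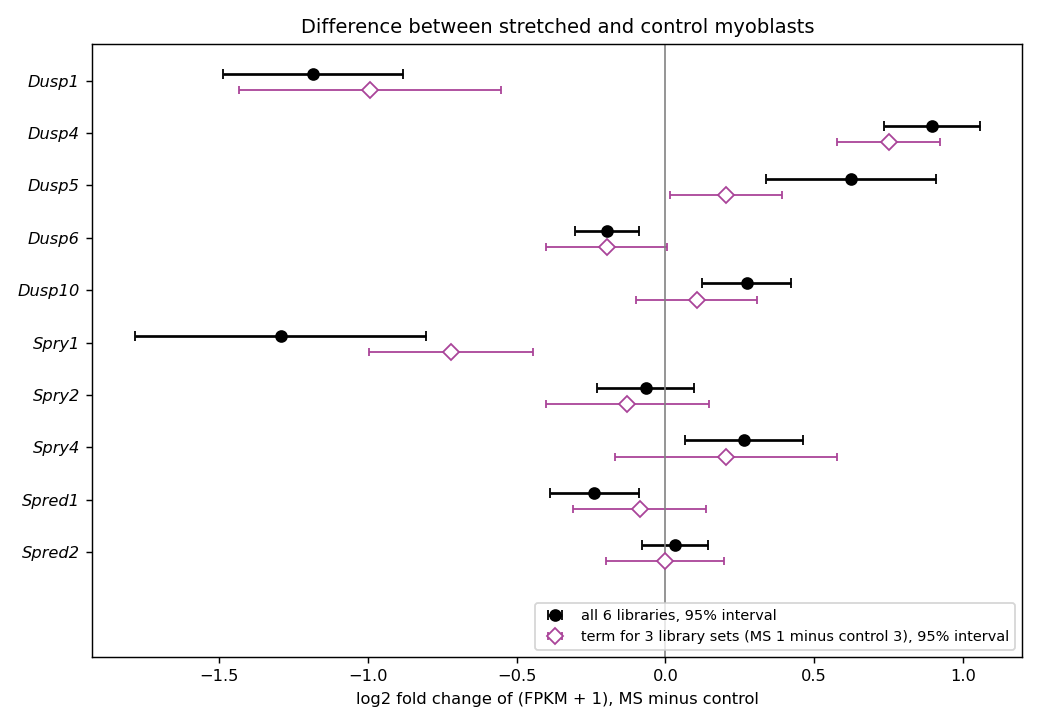
Log2 fold change of FPKM + 1 (x axis, MS minus control) for the 10 feedback genes with 95% intervals; filled circles are the limma fit on all 6 libraries and open diamonds the fit with the 3 library sets as a term. Dusp1 at -1.18, Spry1 at -1.29 and Dusp4 at 0.90 lie away from 0 in both fits. The interval of Dusp5 also leaves out 0 in both, narrowly with the 3 sets (0.02 to 0.39). Its limma adjusted p there was 0.0999. The intervals of Spry2 and Spred2 include 0 in both.

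The promoters of Dusp1 and Dusp5, which moved in opposite directions, and of Spry1, which had the lowest fold change of the 10, are shown as the 250 bases before the RefSeq start (GRCm38.p6), with capitals marking matches to the motifs searched. RefSeq windows were found for 8 of the 10 genes, all but Dusp4 and Spry4.
Dusp1, chr17:26508473-26508722, minus strand: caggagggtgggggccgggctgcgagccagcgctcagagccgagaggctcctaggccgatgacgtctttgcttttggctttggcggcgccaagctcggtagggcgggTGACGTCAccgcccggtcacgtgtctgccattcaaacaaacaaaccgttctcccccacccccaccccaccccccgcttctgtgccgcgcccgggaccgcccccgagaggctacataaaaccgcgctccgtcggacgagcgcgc
Dusp5, chr19:53528895-53529144, plus strand: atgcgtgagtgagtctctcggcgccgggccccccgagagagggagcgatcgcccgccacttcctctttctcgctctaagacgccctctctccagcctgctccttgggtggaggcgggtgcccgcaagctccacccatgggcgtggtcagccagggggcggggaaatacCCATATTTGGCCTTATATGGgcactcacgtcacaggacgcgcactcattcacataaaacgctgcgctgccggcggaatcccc
Spry1, chr3:37639697-37639946, plus strand: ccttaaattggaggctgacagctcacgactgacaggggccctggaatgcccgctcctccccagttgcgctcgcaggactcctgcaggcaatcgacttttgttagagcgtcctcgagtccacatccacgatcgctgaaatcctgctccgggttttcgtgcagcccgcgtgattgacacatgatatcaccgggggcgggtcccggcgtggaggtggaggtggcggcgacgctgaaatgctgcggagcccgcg

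Both strands were searched for the cyclic AMP response element TGACGTCA, the AP-1 site TGANTCA, the ETS site CCGGAAG, the heat shock element GAANNTTC, the ATF4 element TGATGCAA and the CArG box bound by SRF. The Dusp1 window holds 1 cyclic AMP response element, 143 to 136 bases before the start, a motif found in 1.55% of 32851 promoter windows of this length. The Dusp5 window holds 2 adjoining CArG boxes, 82 to 73 and 72 to 63 bases before the start, and 1.47% of all windows hold any. No other match was found in the 8 windows, against 6.75% of all windows with the AP-1 site, 6.91% with the ETS site, 6.69% with the heat shock element and 0.791% with the ATF4 element. A match is a description of letters, and an ERK-responsive element can lie outside such a window.

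Among the phosphatases that work in the nucleus, Dusp1 fell and Dusp4 and Dusp5 rose. Dusp1, also called MKP-1, is an immediate-early gene whose product acts on p38 and JNK as well as ERK. Its row (chromosome 17, 26724564 to 26781102, mm39, minus strand) holds 6 annotated transcripts. It was at 89.8, 84.0 and 68.1 FPKM in control 1 to 3 and at 33.7, 30.6 and 40.4 in MS 1 to 3. The lowest control library was well above the highest MS library, and the spread within each group was smaller than the gap between the means. The log2 fold change was -1.18 (SE 0.13, 95% interval -1.49 to -0.88, limma adjusted p = 0.000316), and the mean FPKM fell by 56.7%. A lower fold change was found for 2.57% of all tested genes. The row spans 56539 bases and overlaps Ergic1 on the opposite strand, which was at 22.3 to 23.5 FPKM in all 6 libraries. The sources used here do not give the strand setting of the counting.

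Dusp4, also called MKP-2, acts on ERK and JNK in the nucleus (chromosome 8, 35274451 to 35287048, plus strand). It was at 30.3, 29.7 and 35.3 FPKM in the controls against 60.1, 58.7 and 60.7 under MS. The MS libraries lay close together and far above all control libraries. Its log2 fold change of 0.90 (SE 0.07, 95% interval 0.73 to 1.06, limma adjusted p = 7.6e-05) was exceeded by 2.39% of all tested genes.

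Dusp5, the gene with the paired CArG boxes, encodes a nuclear phosphatase specific for ERK (chromosome 19, 53517540 to 53530862, plus strand). It was at 21.3, 22.0 and 28.9 FPKM in the controls against 33.4, 40.2 and 38.6 under MS. Control 3 and MS 1, the libraries that share salivary gland transcripts, were the nearest pair between the groups. The log2 fold change was 0.62 (SE 0.12, 95% interval 0.34 to 0.91, limma adjusted p = 0.00435), and it was 0.20 with the 3 library sets as a term (adjusted p = 0.0999).

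Dusp6 and Dusp10 changed less. Dusp6, or MKP-3, is the cytoplasmic phosphatase specific for ERK and a standard readout of ERK activity (chromosome 10, 99099093 to 99103351, plus strand). It was at 48.2, 46.6 and 47.2 FPKM in the controls against 41.1, 39.7 and 42.9 under MS, and the mean fell by 12.9%. The groups did not overlap, with a log2 fold change of -0.20 (SE 0.05, limma adjusted p = 0.00938). The same fold change came from the fit with the 3 library sets, where its adjusted p was 0.132. Dusp10, or MKP-5, prefers p38 and JNK (chromosome 1, 183745499 to 183807833, plus strand). It was at 10.8, 10.4 and 11.4 FPKM in the controls against 12.3, 13.8 and 13.9 under MS, with a log2 fold change of 0.27 (SE 0.06, limma adjusted p = 0.00907), and of 0.11 with the 3 library sets as a term (adjusted p = 0.384). The groups did not overlap for Dusp10 either.

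The summed level of the 5 DUSPs was similar in both groups, while its make-up differed. Together they were at 200.4, 192.7 and 190.8 FPKM in the controls against 180.6, 183.0 and 196.5 under MS, and these ranges overlap. Dusp1 made up 44.8%, 43.6% and 35.7% of the sum in control and 18.7%, 16.7% and 20.6% in MS. The level of Dusp4 was 0.337, 0.354 and 0.518 times that of Dusp1 in the control libraries and 1.78, 1.92 and 1.50 times in the MS libraries. Dusp1 was thus the most abundant of the 10 transcripts per length in each control library and Dusp4 in each MS library.

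**Figure D3:**
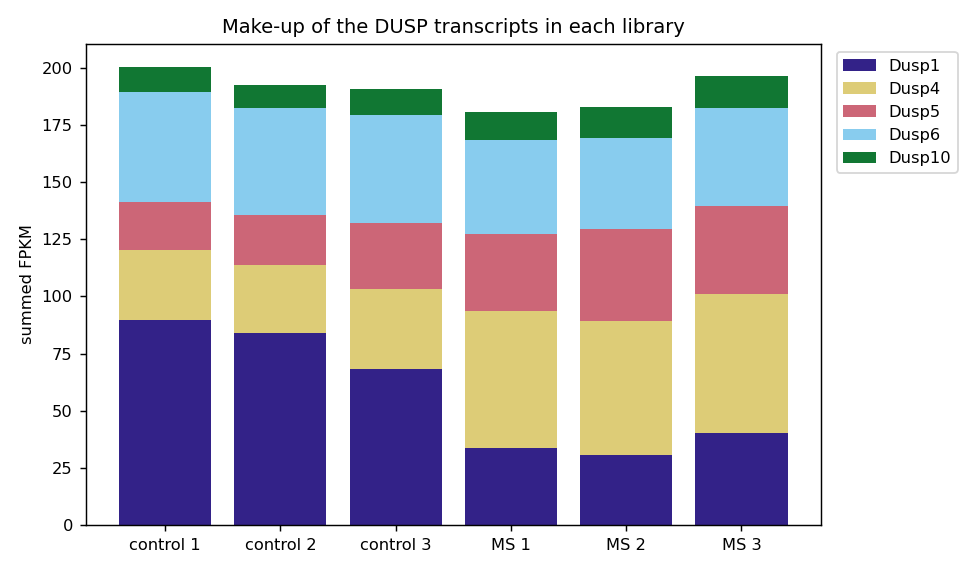
Summed FPKM of the 5 DUSP transcripts (y axis, from 0) in each of the 6 libraries (x axis), stacked by gene. The bars are between 180.6 and 200.4 FPKM high, and the Dusp1 part is 68.1 to 89.8 in control and 30.6 to 40.4 in MS.

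Of the Sproutys, Spry1 fell, Spry2 did not pass the test and Spry4 was a low transcript with a small rise. Spry1 (chromosome 3, 37694096 to 37698747, plus strand) was at 19.2, 18.7 and 10.4 FPKM in the controls against 5.93, 5.28 and 6.09 under MS. Control 3 was far below the other controls and still above every MS library. The log2 fold change was -1.29 (SE 0.21, 95% interval -1.78 to -0.80, limma adjusted p = 0.00186), and the mean FPKM fell by 64.2%. A fold change below that of Spry1 was found for 2.03% of all tested genes. Without control 3 the fold change was -1.56, and with the 3 library sets as a term it was -0.72, so its size depends on which control stands against MS.

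Spry2 (chromosome 14, 106129381 to 106134253, minus strand), the Sprouty that binds the ubiquitin ligase Cbl, was the most abundant of the 3. It was at 33.3, 30.6 and 30.9 FPKM in the controls against 28.2, 29.3 and 33.1 under MS. The groups overlap, and the 95% interval of the log2 fold change, -0.23 to 0.10 (limma adjusted p = 0.455), leaves room for a small difference to either side. The level of Spry2 was 1.64 to 2.97 times that of Spry1 in control and 4.76 to 5.55 times in MS. Spry4, an inhibitor of FGF receptor signalling, was at 1.70, 1.65 and 1.86 FPKM in the controls against 2.30, 2.05 and 2.54 under MS, with a log2 fold change of 0.26 (SE 0.08, limma adjusted p = 0.0317). It is the lowest of the 10, its fold change on the log2(FPKM + 1) scale understates a change at such levels, and its call was lost in 8 of the 17 other settings that gave it a value (adjusted p = 0.0536 to 0.359), among them without control 1, control 2, MS 1 or MS 3.

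The Spreds changed little. Spred1, whose loss in humans causes a neurofibromatosis-like syndrome (chromosome 2, 116951855 to 117012760, plus strand), was at 15.5, 14.3 and 14.0 FPKM in the controls against 13.1, 11.8 and 11.7 under MS. Its log2 fold change was -0.24 (SE 0.06, limma adjusted p = 0.0160). The groups did not overlap, and the call was lost without control 1, MS 2 or MS 3 (-0.22 to -0.20, adjusted p = 0.0532 to 0.0598) and with the 3 library sets as a term (-0.09, adjusted p = 0.506). Spred2 (chromosome 11, 19874375 to 19974026, plus strand) was at 18.0, 17.1 and 18.5 FPKM in the controls against 18.5, 17.9 and 18.4 under MS. These values overlap, and the 95% interval of its log2 fold change was -0.08 to 0.14 (limma adjusted p = 0.610).

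In order of level per length, the controls ran from Dusp1 through Dusp6 (47.3 ± 0.838 FPKM), Dusp4, Spry2 (31.6 ± 1.50), Dusp5 (24.1 ± 4.18), Spred2 (17.9 ± 0.686), Spry1, Spred1 (14.6 ± 0.774) and Dusp10 (10.8 ± 0.494) to Spry4 (1.74 ± 0.111). The values of Dusp4 and Spry2 overlapped. Those of Spry1 spanned the values of both Spreds and, in control 3, lay below Dusp10, while Spred2 was above Spred1 in every control, by 1.16 to 1.32 times. In MS the order was Dusp4, Dusp6 (41.2 ± 1.58), Dusp5 (37.4 ± 3.52), Dusp1, Spry2 (30.2 ± 2.59), Spred2 (18.3 ± 0.293), Dusp10 (13.3 ± 0.889), Spred1 (12.2 ± 0.800), Spry1 and Spry4 (2.29 ± 0.245). The values of Dusp6, Dusp5 and Dusp1 overlapped there, those of Dusp1 and Spry2 overlapped, and so did those of Dusp10 and Spred1. Spry1 was below both Spreds in every MS library and in control 3 but above them in control 1 and control 2. The 3 genes most like Dusp6 over the 6 libraries, by Pearson r of log2(FPKM + 1), were Hdac6 (0.999), Actn1 (0.998) and Fkbp2 (0.992). They were sought among 7197 genes, Dusp6 included, with a mean of at least 5 FPKM and a regular symbol, which leaves out provisional names. The libraries divide by treatment, and 363 of these genes had an r above 0.95, so this likeness is a description only.

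Lists of related genes are set here against all tested genes, of which 30.6% were called higher and 23.2% lower, or 15.3% and 11.0% with the 3 library sets as a term. Of 5 other MAP kinase phosphatases 3 were tested, 2 rose and 0 fell: Dusp9, a cytoplasmic ERK phosphatase, went from 5.18 ± 0.502 to 8.79 ± 0.469 FPKM (log2 fold change 0.67, limma adjusted p = 0.000358) and Dusp16, which acts on JNK and p38, from 2.50 ± 0.0629 to 3.37 ± 0.274 (0.32). The same 2 were called with the 3 library sets as a term. Of 7 tested atypical dual-specificity phosphatases 3 rose and 1 fell, with Dusp18 at 0.67, Dusp3 at 0.45 and Dusp28 at -0.53 on the log2 fold change scale. With the 3 sets as a term 2 were higher and 0 lower. The fall of Dusp28 was lost there (limma adjusted p = 0.571). So was the rise of Dusp11 (0.22 without the term), named after its values were seen (limma adjusted p = 0.0568 with it).

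Of 16 tested other brakes on receptors and RAS 4 rose and 6 fell, 25.0% and 37.5% against 30.6% and 23.2% of all tested genes, with a median log2 fold change of -0.08. Calls in all, 10 of 16, were near the 53.8% of all tested genes. With the 3 library sets as a term 3 were higher and 3 lower, against 15.3% and 11.0% of all. Lrig1, a membrane protein that lowers ERBB receptors, was at 39.5, 42.4 and 37.1 FPKM in the controls against 25.9, 22.0 and 25.3 under MS (log2 fold change -0.68). Errfi1, or MIG6, an ERK-induced inhibitor of the EGF receptor, was at 62.4, 60.5 and 58.6 FPKM in the controls against 38.8, 40.2 and 41.0 under MS (-0.59). The groups did not overlap for either gene. Rasal2, which inactivates RAS, rose by 0.40. Spred3, the remaining Spred, named after its values were seen, rose from 2.55 to 3.55 FPKM on average (0.36).

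Transcripts that ERK is known to induce outside the feedback genes were lower for 9 of 17 tested members (52.9%, against 23.2% of all tested genes) and higher for 4 (23.5% against 30.6%), with a median log2 fold change of -0.38. In the fit with the 3 library sets 5 were lower and 2 higher, against 11.0% and 15.3% of all tested genes. Fos was at 136.7, 101.4 and 80.7 FPKM in the controls against 28.5, 32.4 and 36.4 under MS (log2 fold change -1.66, SE 0.18, limma adjusted p = 0.000336). Egr2 fell by 1.42 and Egr3 by 0.94 on the log2 scale, and the call of Egr3 was lost with the 3 sets (adjusted p = 0.174). All 3 encode immediate-early transcription factors, as Dusp1 is an immediate-early phosphatase gene, and for Fos, Egr2 and Egr3 control 3 was the lowest control, as it was for Dusp1. The others, named after their values were seen, were Junb (-0.80), Etv1 (-0.63), Ier2 (-0.61), Egr1 (-0.59), Srf (-0.38) and Phlda1 (-0.33) downward and Fosl1 (0.66), Myc (0.53), Etv5 (0.43) and Epha2 (0.43) upward. Of these, Junb, Srf, Phlda1, Fosl1 and Myc lost their calls with the 3 sets (limma adjusted p = 0.0530 to 0.157). Etv1, Ier2, Egr1, Etv5 and Epha2 kept theirs. Ccnd1, Ier3, Etv4 and Fosb did not pass.

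**Figure D4:**
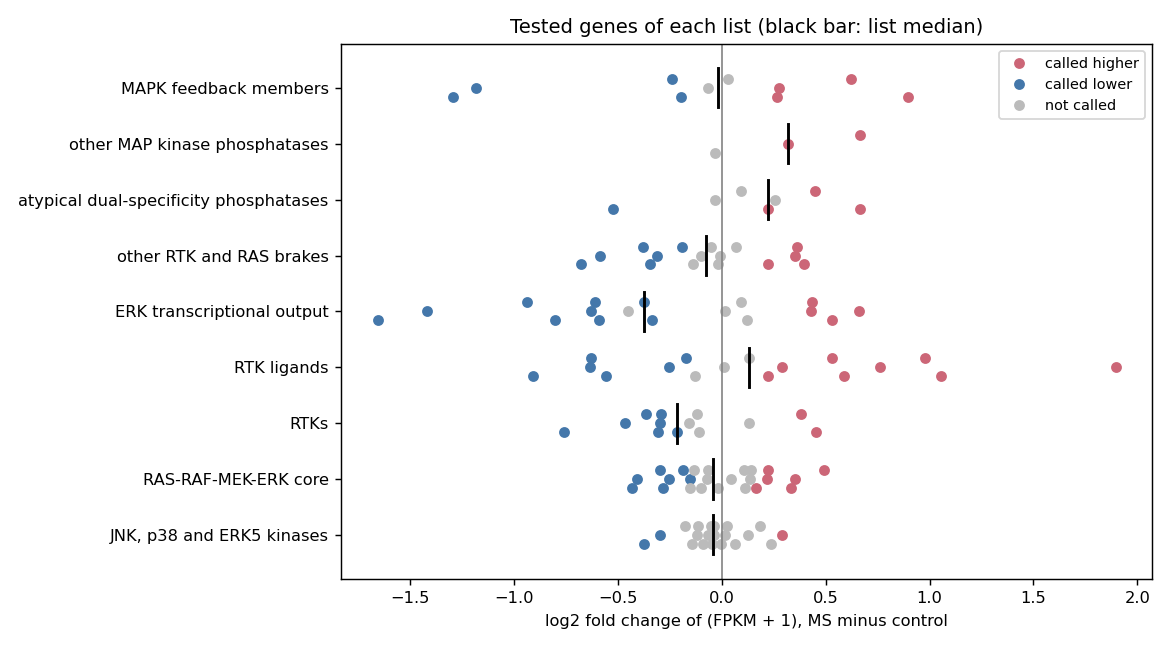
Log2 fold change of FPKM + 1 (x axis, MS minus control) of each tested gene in the 10 feedback genes and 8 lists of related genes (rows); colour gives the limma call, and the black bar is the list median. Immediate-early genes reach -1.66 among transcripts of ERK output, while genes of JNK, p38 and ERK5 cascades lie between -0.38 and 0.29.

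Of 17 tested ligands of receptor tyrosine kinases 8 rose and 6 fell, 47.1% and 35.3% against 30.6% and 23.2% of all tested genes. Vegfa, a growth factor for blood vessels, rose from 32.2 ± 0.168 to 68.0 ± 4.43 FPKM, Areg, a ligand of the EGF receptor, from 16.6 ± 3.37 to 33.3 ± 2.48, and the stress hormone Fgf21 from 0.544 ± 0.208 to 4.76 ± 0.924. Of 13 receptors 2 rose and 7 fell, 15.4% and 53.8% against the same shares, and among them Pdgfrb (-0.76) and Fgfr2 (-0.47) fell and Fgfr1 (0.46) rose. Among the ligands 4 were higher and 3 lower in the fit with the 3 library sets, against 15.3% and 11.0% of all tested genes. That fit called 2 of the 13 receptors higher and 2 lower, against the same shares. The median log2 fold change of the receptors was -0.22 in the fit without that term, against 0.05 over all tested genes. In the fit with the 3 library sets it was -0.19, against 0.08. Pdgfrb, a receptor for PDGF, lost its call there (adjusted p = 0.0822), and so did Fgfr2 (adjusted p = 0.101).

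Of 24 tested genes of the RAS, RAF, MEK and ERK core 6 rose and 7 fell, 25.0% and 29.2% against 30.6% and 23.2% of all tested genes, so that calls in this list were about as common as in the whole table. Their log2 fold changes ran from -0.44 for Rras, a RAS relative, to 0.49 for the MEK scaffold Lamtor3. Mapk3, which encodes ERK1, was at 88.3, 90.6 and 77.2 FPKM in the controls against 68.9, 57.0 and 66.5 under MS (-0.41), a call lost with the 3 library sets (-0.16, adjusted p = 0.325), where 2 genes of this list were higher and 0 lower. Of 20 tested genes of the JNK, p38 and ERK5 cascades 1 rose, the p38 activator Map2k3 (0.29), and 2 fell, Map3k4 (-0.38) and Map3k3 (-0.30), so that 3 of 20 were called against 53.8% of all tested genes. All 3 calls were lost with the 3 library sets as a term, where Map2k5, named after its values were seen, was called higher (0.38). Without that term Map2k5 was not called (0.13, limma adjusted p = 0.271), and its groups overlapped. These values are levels of transcripts and do not give the phosphorylation or activity of any kinase.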

How the data were processed

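Poly(A) RNA-seq of 6 C2C12 libraries (3 control, 3 MS) was deposited by the authors as FPKM per gene, with 1 column per library, per the file headers. Tools listed without role or order, per the submitters' processing notes, are StringTie 2.1.6, HISAT2 2.2.1, cutadapt 1.9, edgeR and DESeq2, on mm39. For filters, strand and multi-mapping reads the setting is not given in these sources. FPKM values keep no depth, so the depth is unknown and no count test was run.

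Gene IDs took symbols from a GENCODE M21 table (31077 of 32815). The 12028 genes whose mean reached 1 FPKM were fitted on log2(FPKM + 1) with limma 3.58.1 in R 4.3.3 (eBayes with trend, two-sided, Benjamini-Hochberg over all tested genes) and called at an adjusted p under 0.05. The fit was tested on simulated data with independent noise and no library sets. That test cannot show how calls hold where libraries form sets. Genes named were the 10 members and, per list, the 3 called genes with the largest absolute fold change. Members and lists were chosen with earlier results of these data known. Promoters came from RefSeq (GRCm38.p6) and motifs were searched by script.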

Additional observations from a re-analysis of the deposited data

How the results depend on the processing

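Under 17 other settings the calls of Dusp1, Dusp4, Dusp5, Dusp6, Dusp10 and Spry1 held in direction and side of the threshold (pseudocount 0.1 or 5, no low-value filter or a mean of 5 FPKM, both scalings, no trend, library weights, a term for control 3 and MS 1 against the rest, those 2 libraries left out, the replicate block, and each library left out). With the 3 library sets as a term, added after seeing the data, 1845 tested genes were higher and 1321 lower, against 3683 and 2787, and 1 of the 10 feedback genes was higher and 2 lower; fewer residual degrees of freedom and a single pair of libraries set this fit apart. Leaving out each library in turn gave 3081 to 3612 tested genes higher and 2292 to 2875 lower, and 3 to 4 of the feedback genes higher and 3 to 4 lower. Spred2, never called, went to -0.01974 under median-of-ratios scaling and to -0.00073 with the 3 sets. Spry4 also lost its call without the low-value filter, under median-of-ratios scaling and without control 3 and MS 1; it has no value at a mean of 5 FPKM. The replicate block gave 3323 genes higher and 2567 lower, with 4 and 4 of the feedback genes. Same-numbered libraries had deviations that correlated at -0.33, 0.25 and -0.37, and the highest correlation was between control 3 and MS 1 (0.46). The deviations from the mean of 3 libraries sum to 0, so these correlations cannot settle whether the numbers pair the libraries.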
